A study of Mus musculus with 27 samples.

Results

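Thumpd1, Eri2 and Tmem159 are 3 genes that lie close together on mouse chromosome 7, and each was measured by 1 probe set in whole brain of C57 and DBA mice. The members were all probe sets whose platform annotation names one of these genes or a synonym. The sets were 94426_at for Thumpd1, 102193_at for Eri2 and 103916_at for Tmem159, 3 of 12422 probe sets once the array controls were set aside, and the genes are 3 of 8251 named by a set with 1 symbol. No probe set with several gene symbols named any of them. The genes were picked because their intensities differed between the strains on these same arrays, so that difference is described here and not tested. The arrays came from untreated mice of 10 weeks of age: 5 males of the strain the labels write as C57BL/2, and 4 DBA/2J mice whose sex is not stated, each with 1 array. A difference of sex between the groups cannot be told apart from strain. Every value is a deposited intensity, and precision is set by how many arrays there are.

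THUMPD1 is the partner that lets the acetyltransferase NAT10 place an acetyl group on cytidines of certain transfer RNAs, a modification that helps keep these RNAs stable and decoding well. ERI2 belongs to the ERI1 family of exonucleases, enzymes that shorten nucleic acids from one end. TMEM159, also called promethin or LDAF1, works with the membrane protein seipin at the sites of the endoplasmic reticulum where lipid droplets form.

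The start regions of Thumpd1 and Eri2 are shown as background, and their sequences differ in kind. They are from 1 reference build, and DBA sequence was not compared. Any part of them in the strain differences was not tested. Both come from RefSeq on build GRCm38.p6, cover 250 bases before to 50 after the gene's start, and run in the gene's own direction on the minus strand. The Thumpd1 window is chr7:119723570-119723869 and the Eri2 window chr7:119794009-119794308. Capitals mark every CG dinucleotide.
Thumpd1: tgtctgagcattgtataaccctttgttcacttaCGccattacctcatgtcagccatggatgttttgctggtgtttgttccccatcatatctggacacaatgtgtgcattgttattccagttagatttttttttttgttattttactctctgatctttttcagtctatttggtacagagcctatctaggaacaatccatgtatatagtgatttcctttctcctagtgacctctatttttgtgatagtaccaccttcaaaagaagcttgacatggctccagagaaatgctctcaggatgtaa
Eri2: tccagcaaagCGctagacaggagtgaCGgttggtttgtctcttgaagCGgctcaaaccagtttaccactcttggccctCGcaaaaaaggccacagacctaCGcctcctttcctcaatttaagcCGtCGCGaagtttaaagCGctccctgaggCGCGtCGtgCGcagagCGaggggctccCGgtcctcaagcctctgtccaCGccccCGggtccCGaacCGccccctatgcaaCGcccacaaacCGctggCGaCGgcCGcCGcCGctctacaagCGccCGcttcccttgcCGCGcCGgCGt
The Thumpd1 window held 1 CG and 38.0% G and C, whereas the Eri2 window held 32 CG and 63.3% G and C. Of 32851 windows of the same length in the table, with a median of 7 CG, 14.1% held as few CG as Thumpd1 or fewer, and 91.4% held as many as Eri2 or fewer. The Eri2 window runs into that of its neighbour Rexo5, which is read the other way: 163 to 228 bases were shared, depending on which of the starts listed for Rexo5 was taken. Of 5 motifs searched on both strands, the Thumpd1 window held none and the Eri2 window held 1 copy of the GC box GGGCGG, which 35.7% of all windows held. The other motifs were the TATA box TATAAA (13.6% of windows), the CCAAT box CCAAT (37.4%), the ETS motif CCGGAAG (8.86%) and the CRE TGACGTCA (1.79%). None of the motif sequences contains another. A match is only a match of letters.

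Thumpd1 had the widest gap between the strains. In C57 animals 1 to 5 its intensity was 1291.3, 1252.8, 1245.8, 1193.6 and 1094.8. In DBA animals 1 to 4 it was 96.6, 175.7, 140.5 and 146.8. All C57 animals were high and all DBA animals low, and the lowest C57 animal was 6.23 times as high as the highest DBA animal. Mean intensity was 1216 ± 76.0 (SD, n = 5) in C57 and 139.9 ± 32.7 (SD, n = 4) in DBA. The log2 difference, DBA minus C57, was -3.15 ± 0.16 (SE). Every DBA value lay above 35.4, the mean intensity over the arrays below which probe sets were left out as dim. That limit applies to means of sets and is not a detection limit for a single array. DBA animal 1 was the lowest, and without it the log2 difference was -2.98.

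Tmem159 was lower in DBA by a smaller factor. Its intensity was 315.8, 196.5, 311.4, 163 and 224 in C57 animals 1 to 5. It was 93.2, 103, 74.7 and 92.7 in DBA animals 1 to 4. The strains did not overlap, but the C57 animals were split, with animals 1 and 3 well above animals 2, 4 and 5. Mean intensity was 242 ± 68.7 (SD, n = 5) in C57 and 90.9 ± 11.8 (SD, n = 4) in DBA, a log2 difference of -1.38 ± 0.21 (SE) or 2.59-fold. The lowest C57 animal was 1.58 times as high as the highest DBA animal.

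Eri2 had the smallest difference and the tightest values. Its intensity was 249, 265.4, 277.4, 295.5 and 265.8 in C57 animals 1 to 5. It was 193, 198.8, 172.9 and 181.8 in DBA animals 1 to 4. All DBA animals again lay under all C57 animals, here by a factor of 1.25 between the nearest animals. Mean intensity was 271 ± 17.2 (SD, n = 5) in C57 and 187 ± 11.6 (SD, n = 4) in DBA, a log2 difference of -0.54 ± 0.09 (SE) or 1.45-fold.

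**Figure D1:**
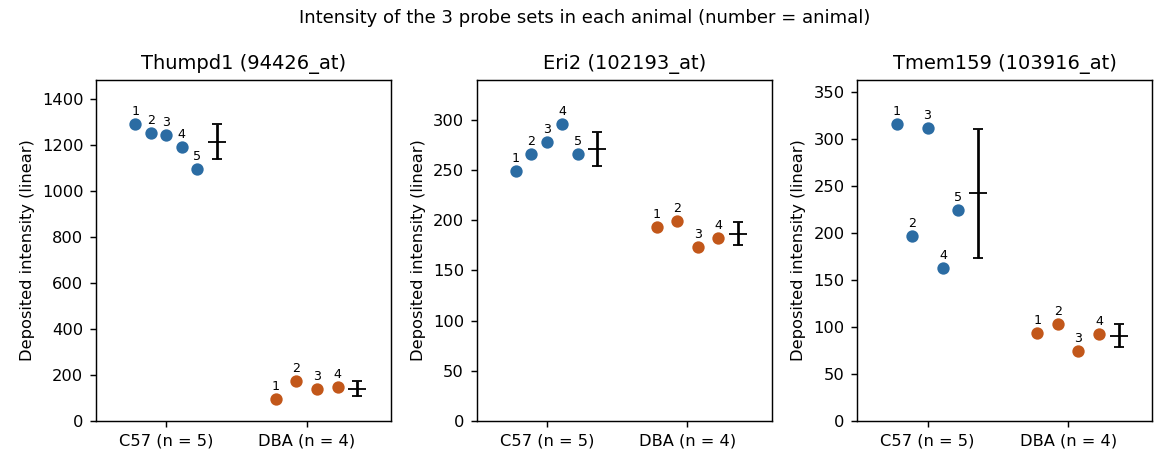
Deposited intensity on a linear scale from 0 for the 3 probe sets, 1 point per animal (the number is the animal), with the mean and SD of each strain in black. In each panel the 4 DBA animals lie below the 5 C57 animals: Thumpd1 at 96.6 to 175.7 against 1094.8 to 1291.3, Eri2 at 172.9 to 198.8 against 249 to 295.5, and Tmem159 at 74.7 to 103 against 163 to 315.8.

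The spread within a strain differed from gene to gene. The SD of log2 intensity of Thumpd1 was 0.09 in C57 and 0.36 in DBA. That of Tmem159 was the other way round, 0.42 in C57 and 0.20 in DBA, and that of Eri2 was 0.09 in both. Set against all tested probe sets, the SD within strains was at the 3rd percentile for Eri2, the 51st for Thumpd1 and the 70th for Tmem159. The order of the animals was not shared throughout. DBA animal 2 was the highest DBA animal at all 3 genes, whereas the lowest was animal 1 at Thumpd1 and animal 3 at Eri2 and Tmem159. C57 animal 1 was the highest C57 animal at Thumpd1 and Tmem159 and the lowest at Eri2. A relation between the genes within a strain was not tested.

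In the fit of all probe sets, 3 of 3 member probe sets passed an adjusted p under 0.05 (limma, Benjamini-Hochberg over 9316 tested probe sets), all lower in DBA, where 2.50% of the tested sets passed in either direction and 1.61% as lower. At 3.61% of the tested sets all DBA animals lay under all C57 animals, as at the 3 members. Nothing is read from these counts, because the members were chosen on the same difference. The call of Eri2 ended under median centring (adjusted p = 0.0781). Counted from the largest fall, Thumpd1 stood at rank 3 of 9316 tested probe sets, Tmem159 at rank 42 and Eri2 at rank 393. How well the probes match DBA sequence was not tested, for the members or for any other gene named here. Whether a lower intensity in DBA reflects less RNA was therefore not tested either. The RNA was from whole brain, so where RNA is lower, fewer cells of a type and less RNA per cell cannot be told apart.

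**Figure D2:**
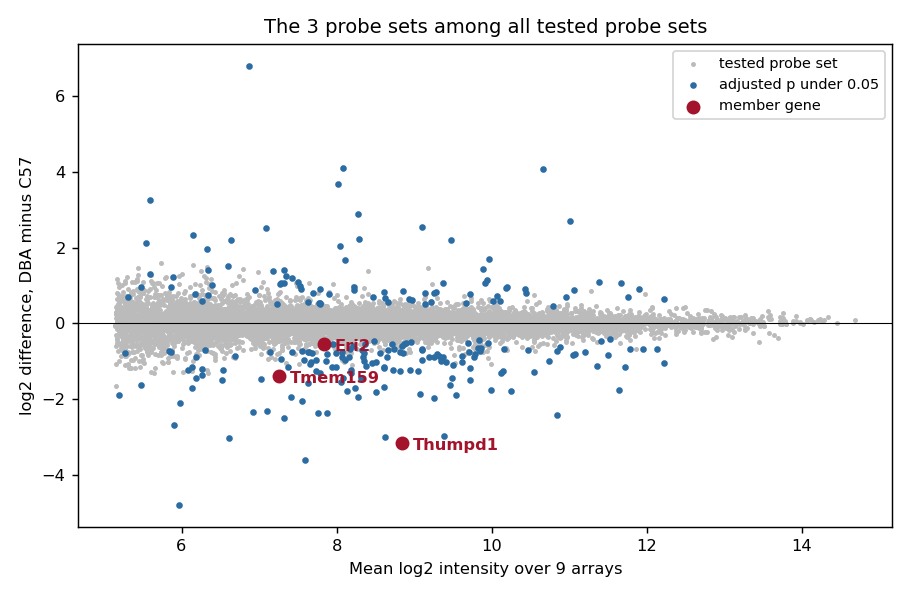
Each point is 1 of 9316 tested probe sets, with its mean log2 intensity over the 9 arrays on the x axis and its log2 difference, DBA minus C57, on the y axis; sets with an adjusted p under 0.05 are blue and the 3 members red. Thumpd1 (-3.15) lies near the lower edge of the cloud, Tmem159 (-1.38) below its dense part and Eri2 (-0.54) close to its border.

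The genes around the 3 members were chosen by position alone and could be tested. In the RefSeq gene order of coding genes, 2 genes lie between Thumpd1 and Eri2 and 4 between Eri2 and Tmem159. With 20 more genes on either side this gave 46 neighbours, of which 14 had a probe set and 10 had one bright enough to test. Crym was the 1 neighbour of these 10 that passed, lower in DBA, beside 2.50% of all tested sets passing and 1.61% passing as lower. The other 9 tested neighbours did not pass, and 3 of the 10, Crym included, had an unadjusted limma p under 0.05, as did 12.2% of all tested sets.

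Crym encodes mu-crystallin, which binds thyroid hormone in the cytoplasm, and is the third coding gene after Tmem159. Its intensity at 160937_at was 552, 622.1, 516.5, 536.8 and 565.4 in C57 animals 1 to 5. It was 373.7, 401.2, 442.8 and 357.5 in DBA animals 1 to 4. The strains did not overlap, and Crym fell by 0.51 ± 0.10 on the log2 scale (1.42-fold, adjusted p = 0.0318), a size close to that of Eri2. Leaving out any 1 of C57 animals 1, 2, 4 and 5 or of DBA animals 1, 2 and 4 ended the call (adjusted p 0.0635 to 0.104). It was also lost with quantile normalization (adjusted p = 0.0510), with median centring (0.124) and with no filter on dim sets (0.0638).

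The genes nearest to the members gave little signal. Acsm3, a medium-chain acyl-CoA synthetase gene between Thumpd1 and Eri2, had intensities of 1.7 to 12 in C57 and 0.6 to 13.5 in DBA, below the brightness limit. Rexo5, an RNA exonuclease gene that starts beside Eri2, was also below it, at 6.2, 16.2, 4.7, 8.9 and 21.6 in C57 animals 1 to 5 and 2.9, 2.8, 2.6 and 4.9 in DBA animals 1 to 4. Its strains touched, since C57 animal 3 at 4.7 lay under DBA animal 4 at 4.9. Neither gene was tested. Acsm2, of the same enzyme family, is the nearest tested gene before Thumpd1, at a log2 difference of 0.38 ± 0.48 (adjusted p = 0.838). Leaving out C57 animal 2 gave 0.0441, and leaving out C57 animal 4 gave 0.628. Zp2, an egg coat protein gene just after Tmem159, differed by -0.31 ± 0.26 at 162261_f_at (adjusted p = 0.730), a set whose suffix marks probes shared by a family of similar sequences, and by -0.0667 without DBA animal 3.

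Farther out the neighbours varied in sign and size. Eef2k, the kinase of elongation factor eEF2, had the largest difference of the tested neighbours, 1.07 ± 0.41 on the log2 scale, and did not pass (adjusted p = 0.309). Without DBA animal 3 it was 0.651. Its intensities overlapped, 20.7 to 60.1 in C57 and 49.7 to 179.4 in DBA. Cdr2, a cytoplasmic antigen of cerebellar degeneration, differed by -0.30 ± 0.12 (adjusted p = 0.324). The other 5 tested neighbours lay between -0.21 ± 0.13 (Syt17, of the synaptotagmin family) and 0.04 ± 0.14 (Uqcrc2 at 102000_f_at, a core subunit of respiratory complex III). Over the 10 tested neighbours the median log2 difference was -0.16, with 7 below 0, beside a median of 0.01 over all tested sets, 48.3% of which lay below 0.

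**Figure D3:**
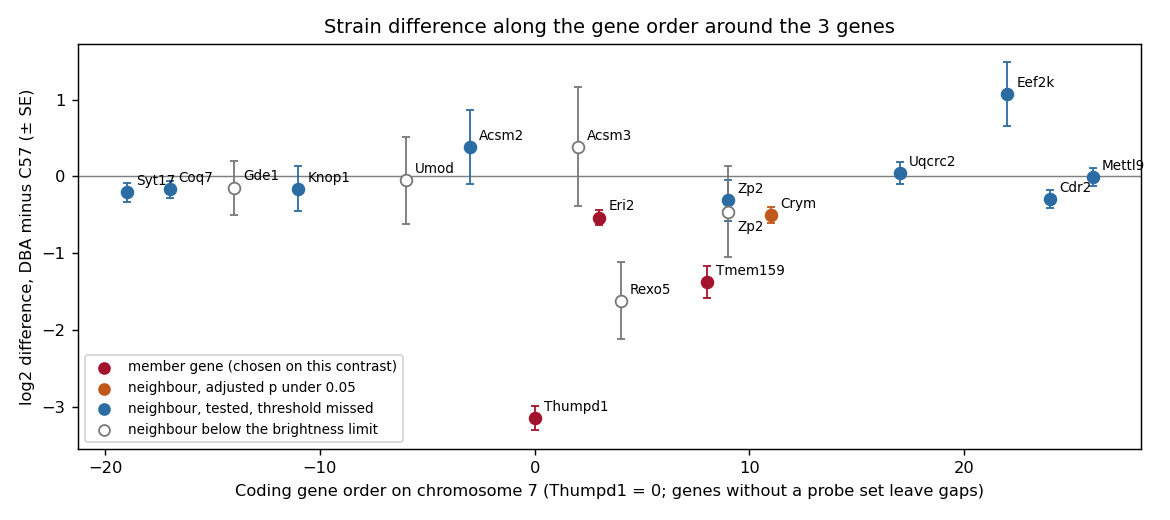
Log2 difference, DBA minus C57, with its standard error, for each probe set in coding gene order around the members (Thumpd1 at 0 on the x axis; genes with no probe set leave gaps). The 3 members (red) and Crym (orange, the 1 neighbour with an adjusted p under 0.05) lie below 0 within 12 successive coding genes, tested neighbours that missed the threshold are blue, and open points are below the brightness limit, with standard errors from their own values alone.

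Thumpd1, Eri2 and Tmem159 are successive in the order of tested coding genes. Among 6728 runs of 3 successive tested coding genes on all autosomes and the X chromosome, 3 runs had a passing probe set at all 3 genes. The other two runs overlap on chromosome 12 and consist of Serpina1b, Serpina1c, Serpina1e and Serpina3n, protease inhibitor genes of one family. Before Thumpd1, the nearest coding gene that passed was Mrpl48, a mitochondrial ribosomal protein gene 366 coding genes away, with 64 tested genes between. Chromosome 7 as a whole had 17 passing sets of 629 (2.70%), 13 lower and 4 higher in DBA. Without the members it had 14 of 626 (2.24%), beside 2.41% on the other chromosomes. These positions describe the members and, as they were part of the choice, were not tested.

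Genes that act on transfer RNA were next examined, as the field of Thumpd1. Of 70 genes in the list, 15 had a probe set and 14 were tested at their brightest one. Of these 1 passed, lower in DBA, and 2 of 14 lay below 0, with a median log2 difference of 0.15. Over all genes by their brightest set 2.23% passed, 48% lay below 0 and the median was 0.01. Trmt1, which methylates a guanosine of many transfer RNAs, was the one that fell. Its intensity was 1020.8, 1247.5, 1124.3, 829.2 and 907.5 in C57 animals 1 to 5. It was 478.9, 417.8, 552.9 and 455.3 in DBA animals 1 to 4, all below the C57 animals, a log2 difference of -1.10 ± 0.14 (adjusted p = 0.00246). Trmt1 is on chromosome 8. Thumpd3, a relative of Thumpd1 that carries the same RNA-binding domain, differed by 0.18 ± 0.12 (adjusted p = 0.638). Nat10 and Thumpd2 are not measured here.

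Of 38 genes for exonucleases and related enzymes of RNA decay, the field of Eri2, 18 had a probe set and 16 were tested at their brightest. Limma called 0 of the 16, 2 had an unadjusted p under 0.05, 10 lay below 0, and the median was -0.07. Over all genes by their brightest set 2.23% passed and 48% lay below 0. Of all tested sets 12.2% had an unadjusted p under 0.05. The smallest p of any set was that of Noct, which encodes nocturnin, at 101787_f_at. As for Zp2, its suffix marks probes shared by a family of similar sequences. This set had 2058.6, 1478.9, 1624.7, 1561.9 and 1463.5 in C57 animals 1 to 5 and 875.3, 1025.5, 883.4 and 1586.8 in DBA animals 1 to 4. DBA animal 4 lay among the C57 animals, the log2 difference was -0.62 ± 0.19 (adjusted p = 0.172), and without that animal it was -0.81 (adjusted p = 0.0186). The brightest Noct set, 99535_at, differed by -0.09 ± 0.14 (adjusted p = 0.865). Eri1 and Eri3, the closest relatives of Eri2, are not measured here.

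Of 42 lipid droplet genes, the field of Tmem159, 23 had a probe set and 21 were tested at their brightest. Limma called 0 of the 21, 0 had an unadjusted p under 0.05, 10 lay below 0, and the median was 0.003. The shares to set beside these are again 2.23% of genes passing, 48% of genes below 0 and 12.2% of tested sets unadjusted. Bscl2, which encodes seipin, the partner of TMEM159, had 1247 to 1430 in C57 and 1235.9 to 1534.3 in DBA, a log2 difference of 0.09 ± 0.10 (adjusted p = 0.819). The droplet coat gene Plin2 differed by 0.23 ± 0.17 (adjusted p = 0.685). The triglyceride-forming enzyme gene Dgat1 differed by 0.15 ± 0.16 (adjusted p = 0.808). The smallest p of the list was that of Ubxn8 (-0.22 ± 0.11, adjusted p = 0.501).

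**Figure D4:**
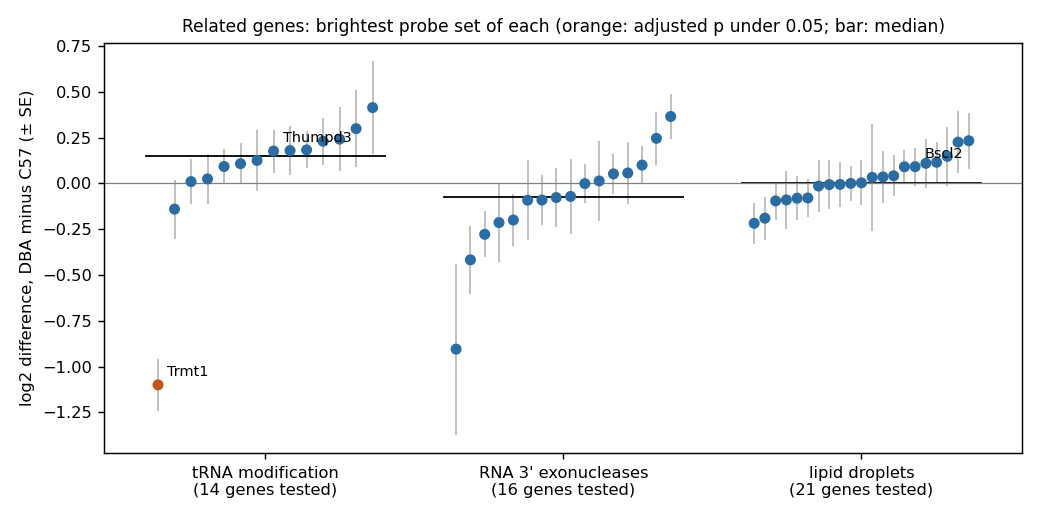
Log2 difference, DBA minus C57, with its standard error for each tested gene of the 3 related lists at its brightest probe set, in order of size within a list, with the list's median as a bar. Trmt1 at -1.10 (orange) is the 1 gene with an adjusted p under 0.05, and Thumpd3 (0.18) and Bscl2 (0.09), relatives or partners of the members, lie near their list's other genes.

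Probe sets with a profile like that of a member were sought by the root mean square distance between log2 values over the 9 arrays, each set centred on its own mean. Nearest to Thumpd1 were Snhg6 (distance 0.31), Spg21 at 95430_f_at (0.36), the set listed for Mir686 (0.41), Pdxdc1 at 94312_at (0.49) and Usp38 at 160605_s_at (0.50), on chromosomes 1, 9, 14, 16 and 8. Their log2 differences ran from -3.00 (Spg21) to -2.34 (Usp38). Nearest to Tmem159 were Scoc (0.24), Rnase4 (0.25) and Pkia (0.26), on chromosomes 8, 14 and 3. Nearest to Eri2 were Klc1 at 97985_f_at (0.08), Copa (0.09) and H1f2 (0.11), on chromosomes 12, 1 and 13. None of these 11 sets is on chromosome 7. The members lay farther from each other, at 0.94 for Thumpd1 and Tmem159, 1.32 for Thumpd1 and Eri2 and 0.53 for Eri2 and Tmem159. Sets were centred but not scaled, so these distances largely restate how far the sizes of the strain differences lie apart. The members were chosen on that difference, so nothing is read from the distances about a shared profile.

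Markers of brain cell types were read on the same arrays, each gene at its brightest set. The tissue label fitted the neuron markers: 8 of 10 were measured, all above the brightness limit, 0 passed, and their summed intensities were 44101.8 to 46996.5 in C57 and 44811.7 to 52559.5 in DBA. Of the 8, 4 lay below 0, the median was 0.001, and 1 had an unadjusted limma p under 0.05. That gene, Syn2, was higher in DBA without overlap (0.27 ± 0.09, adjusted p = 0.205). Among the microglia markers 2 of 7 tested genes passed, both lower in DBA, beside 2.23% of all genes. These were the complement genes C1qb (-0.85 ± 0.12, adjusted p = 0.00343) and C1qc (-0.65 ± 0.13, adjusted p = 0.0318). In the whole list 5 of the 7 lay below 0, with a median of -0.15, and 3 had an unadjusted limma p under 0.05. The third of these, Ctss, was higher in DBA (0.32 ± 0.12, adjusted p = 0.290). The call of C1qc was lost without any 1 of C57 animals 2, 4 and 5 or DBA animals 1, 2 and 3 (adjusted p 0.0525 to 0.104), with median centring (0.107) and with no filter on dim sets (0.0656). The summed microglia markers overlapped, at 5897.3 to 7152.6 in C57 and 5937.8 to 6326.6 in DBA. This sum adds linear intensities, so bright genes weigh most. Ctss, the brightest (geometric mean 1954 in C57 and 2437 in DBA), rose while C1qb and C1qc fell. The overlap therefore does not show that the single markers were alike in both strains.

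Of 6 tested oligodendrocyte markers 5 lay below 0, with a median of -0.38, and 3 had an unadjusted p under 0.05, but 0 passed at their brightest set. Over all genes by their brightest set 48% lay below 0 and 2.23% passed. Of all tested sets 12.2% had an unadjusted limma p under 0.05. One weaker set of the myelin gene Mobp, 99046_at, passed (-0.84 ± 0.12, adjusted p = 0.00416), whereas its brightest, 100536_at, did not (-0.11 ± 0.19, adjusted p = 0.882). The 3 genes with an unadjusted limma p under 0.05 were Mag, Cldn11 and Mog. Their log2 differences were -0.57 ± 0.16, -0.59 ± 0.16 and -0.62 ± 0.18 (adjusted p = 0.120, 0.127 and 0.137). A weaker Mag set, 161846_r_at, went the other way (0.29 ± 0.18, adjusted p = 0.612). The oligodendrocyte sums overlapped as well, at 21013.6 to 28714.8 in C57 and 20854.4 to 24690.1 in DBA. These sums add linear intensities, so the bright Mbp and Mobp sets weigh most in them. Limma called 0 of 6 astrocyte, 0 of 3 blood, 0 of 5 pituitary and 0 of 3 choroid plexus markers, with 2, 1, 0 and 1 at an unadjusted p under 0.05. Their medians were -0.15, -0.15, 0.02 and 0.46. The blood marker S100a8 narrowly missed (-1.01 ± 0.23, adjusted p = 0.0506), at 46.5 to 114 in C57 and 35.8 to 45.7 in DBA. Ttr, the brightest choroid plexus marker, was higher in DBA (0.85 ± 0.30, adjusted p = 0.257). The 4 measured choroid plexus markers of 6 summed to 1129.6 to 3558.8 in C57 and 3456.6 to 4684.5 in DBA. No measured marker of any list was at 0 in any animal. Of 5 control genes, the log2 ratio of the probe set near the transcript's far end to that near its start was separate between strains for Gapdh, at -0.29 to -0.19 in C57 and -0.44 to -0.32 in DBA (exact 2-sided permutation test, p = 0.0159, the smallest that 5 and 4 arrays allow, and 0.0794 adjusted over 5 controls). The mean log2 ratio was lower in DBA at all 5 controls, the difference running from -0.32 (pyruvate carboxylase) to -0.12 (Gapdh). For pyruvate carboxylase the same permutation test gave p = 0.0556 (0.139 adjusted). The part of these markers and ratios in the members' differences was not tested.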

How the data were processed

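Per the labels' protocols, labelled cRNA was made from 5 ug of total RNA by the array maker's procedure. The deposited intensity values of the 9 arrays whose titles carry no letter are linear. The scaling method is not given in the sources used here. The mean without the top and bottom 2% was 500.3 on every array, and medians ran from 160 to 198. Groups came from sample titles, because every description carries the same alternative name. Of 12488 probe sets, 66 controls were left out. Values under 1.70 were raised to it (0.977% of values), log2 was taken, and the dimmest 25% (below 35.4) were dropped, leaving 9316. limma 3.58.1 (lmFit and eBayes, R 4.3.3) gave 2-sided strain comparisons with Benjamini-Hochberg adjustment, and the fit was tested on simulated data. There a share of 0.7 of the planted differences was recovered at an effect of 1 and 0.93 at an effect of 2, with 10 false calls. Recovery at smaller effects was not measured. The labels name separate mice, 1 array each.

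Symbols came from the platform annotation and, through gene identifiers, from the RefSeq gene table of GRCm38.p6 (10817 probe sets). Of the members, Thumpd1 and Eri2 matched its promoter table, and Tmem159 did not. The 18 arrays titled with a letter were not used for the members: across 4640 genes named on both platforms the listed names gave a Spearman correlation of -0.00 for the mean level, under the limit of 0.3. Text names all member sets, passing and nearest tested neighbours, passing or smallest-p list genes, fixed partners of the members and nearest profiles. Eef2k, Cdr2, Syt17, Uqcrc2, Plin2, Dgat1, C1qb, C1qc, Ctss, Mobp, Mag, Cldn11, Mog, Syn2, S100a8 and Ttr were named after their values were seen. Members and lists were chosen with earlier results of these data known. Alternatives were other scaling, floors, filters and variance models, the animal number as a block, other neighbour windows, and leaving out each animal. Figures were drawn with matplotlib 3.10.9.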

Additional observations from a re-analysis of the deposited data

Results flagged for a closer look

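At Mettl9, a neighbour that did not pass, DBA animal 3 stood apart from its group: its intensity was 890.3, beside 1047.9 to 1083.7 in the other DBA animals. On log2 values the gap was 0.829 of the group's whole range, just over the limit for 4 animals, whereas on the intensities themselves it was 0.815, under that limit. In all 80 groups were examined in this way, and chance sets aside about 1 in 20 such groups.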

How the results depend on the processing

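On the log2(intensity + 50) scale, which shrinks differences of dim sets, the log2 differences were -2.75 for Thumpd1, -0.44 for Eri2 and -1.02 for Tmem159. With 1 animal left out they ran from -3.27 to -2.98, from -0.57 to -0.50 and from -1.51 to -1.27. The count of passing neighbours was 0 in place of 1 with quantile normalization, with median centring, with no filter on dim sets and with the replicate block, and 0 or 1 with 1 animal left out. Over all probe sets 233 passed, 150 at an adjusted p under 0.01, and 184 to 228 with 1 animal left out. Animals of the same number do not share a source in the labels, and their deviations correlated at -0.17 to -0.01. With the number as a replicate block, which sets C57 animal 5 aside, 73 sets passed, and 0 transfer RNA genes in place of 1. In that fit Trmt1 had an adjusted p of 0.0515, Crym 0.311, C1qb 0.0899, C1qc 0.147, Mobp at 99046_at 0.0869, Eri2 0.249 and Tmem159 0.0899. With the dimmest 50% left out Tmem159 was not tested. Of the neighbours that did not pass, 3 changed sign when 1 animal was left out: Knop1 ran from -0.391 to 0.0326, Mettl9 from -0.0517 to 0.0632 and Uqcrc2 from -0.0417 to 0.132. No other value in these comparisons changed sign. Windows of 10 or 40 coding genes on each side also held 1 passing neighbour. The alternatives planned for the arrays titled with a letter were not run, because their listed gene names were not borne out.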
